A study of Homo sapiens with 2 samples.

Results

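Homologous recombination and the Fanconi anaemia pathway repair broken and crosslinked DNA, and 39 genes of both routes and of their checkpoint kinases were followed here. They were chosen by name, as a fixed list of gene symbols, with earlier results of these data known. Values were read from the array probe sets whose annotation gives that symbol alone. Of the 39 genes, 35 had such a probe set, and 32 were measured, meaning a signal of 100 or more on either array, out of 12754 measured genes in all. FANCA, FANCD2, BRCA2 and RBBP8 were not analysed here. The 35 genes had 80 probe sets, of which 52 were measured.

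The arrays were made from hTERT-RPE1, a line of human retinal pigment epithelium that keeps dividing through added telomerase. One sample received a miR-129-3p oligo and the other a control oligo, both by a lipid reagent, and RNA was taken 72 h later from cells grown with 10% fetal bovine serum and 0.01 mg/ml hygromycin B. Each group held 1 array, so no value has a replicate error, no difference was tested, and a difference compares these 2 arrays. The level of miR-129-3p and the sequence of the control oligo were not analysed here.

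The 2 arrays had median signals of 98.0 with miR-129-3p and 96.5 in control over 54613 probe sets, and 49.4% of them on the miR-129-3p array and 48.9% on the control array reached 100. ABLIM1, which the study names as a target of the microRNA, read 441 with miR-129-3p and 1066 in control, and CCP110, which encodes CP110, read 345 with miR-129-3p and 415 in control. Of 9 markers of retinal pigment epithelial cells 5 were measured, namely KRT8, KRT18, VIM, MITF and PMEL, while RPE65, BEST1, TYR and RLBP1 were under 100 on both arrays. Of the 5, 2 were past 1.5-fold as lower, the transcription factor gene MITF (1020 with miR-129-3p and 2470 in control) and the keratin gene KRT18 (2972 with miR-129-3p and 5787 in control), and the melanosome gene PMEL was higher (229 with miR-129-3p and 114 in control). KRT8 read 4918 with miR-129-3p and 6138 in control, and VIM 16201 with miR-129-3p and 18474 in control. The second measured probe set of VIM differed by -0.69 on the log2 scale, past 1.5-fold as lower. Of the blood cell markers only HBB passed 100, at 149 with miR-129-3p and 162 in control. Of 7 neuronal markers 2 did, SNAP25 (132 with miR-129-3p and 105 in control) and SYT1 (2359 with miR-129-3p and 1313 in control). A dimmer measured probe set of SNAP25 was higher by 2.82 on the log2 scale, and it passed 100 only with miR-129-3p.

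When a replication fork meets a crosslink between the DNA strands, the Fanconi core complex attaches ubiquitin to FANCI and its partner, which calls in nucleases and recombination. At a broken end, the complex of MRE11, RAD50 and NBN binds first, the end is cut back to a single strand, and BRCA1 with its partners helps load the recombinase that invades the sister chromatid. ATM and ATR signal the damage through CHEK2 and CHEK1. Recombination is used mainly in S and G2 phase, when a sister chromatid is present, and transcripts of many of its genes are most abundant in dividing cells.

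Both human forms of miR-129-3p are shown because the labels do not say which one the oligo copied. Sequences are from RefSeq, build GRCh38.p14, with the seed, bases 2 to 8, in capitals.
hsa-miR-129-1-3p (chr7:128207920-128207941, + strand): aAGCCCUUaccccaaaaaguau
hsa-miR-129-2-3p (chr11:43581450-43581471, + strand): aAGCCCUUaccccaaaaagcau
They share the seed and differ by U20C, counted from the 5′ end of the first. Transcript sequences were not used here, so matches of the seed in the repair genes were not looked for.

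Over the 32 measured repair genes, 10 were lower by 1.5-fold or more with miR-129-3p than in control (31.2%), against 10.8% of all measured genes. They were BRCA1, CLSPN, FANCI, BRIP1, UBE2T, RAD51AP1, EXO1, FANCG, BLM and MRE11, from 2.38-fold to 1.52-fold lower. Only NBN and CHEK2 were at least 1.5-fold higher, 2 of 32 (6.25%) against 17.3% of all measured genes. The other 20 differed by less, from -0.43 to 0.56 on the log2 scale, 11 of them above 0 and 9 below. The median log2 difference of the 32 was -0.27, and that of all measured genes was 0.03. All log2 differences are of log2(signal + 16), miR-129-3p minus control, and folds are on that scale, on which dim genes differ by less than their signals do. At a limit of 2-fold, 2 of the 32 were lower (6.25%), against 4.56% of all measured genes, and 2 higher, against 7.83%, so that both shares lay near those of all genes.

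A pair of yardsticks bears on these counts. Differences of several measured probe sets of one gene had a pooled SD of 0.37 over 6179 genes, and 0.37 over the 13 repair genes with more than 1 measured probe set, which is a spread within these arrays and not between cultures. Of the 20 genes within 1.5-fold, 17 differed by less than that SD. CLSPN and EXO1 passed the filter only through the control array, so a lower value was built into their passing. With a signal of 100 or more asked of both arrays, a rule added once the values were known, 8 of 29 genes were lower (27.6%), against 10.4% of 11539 such genes in all, and 2 were higher (6.90%), against 15.7%.

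**Figure D1:**
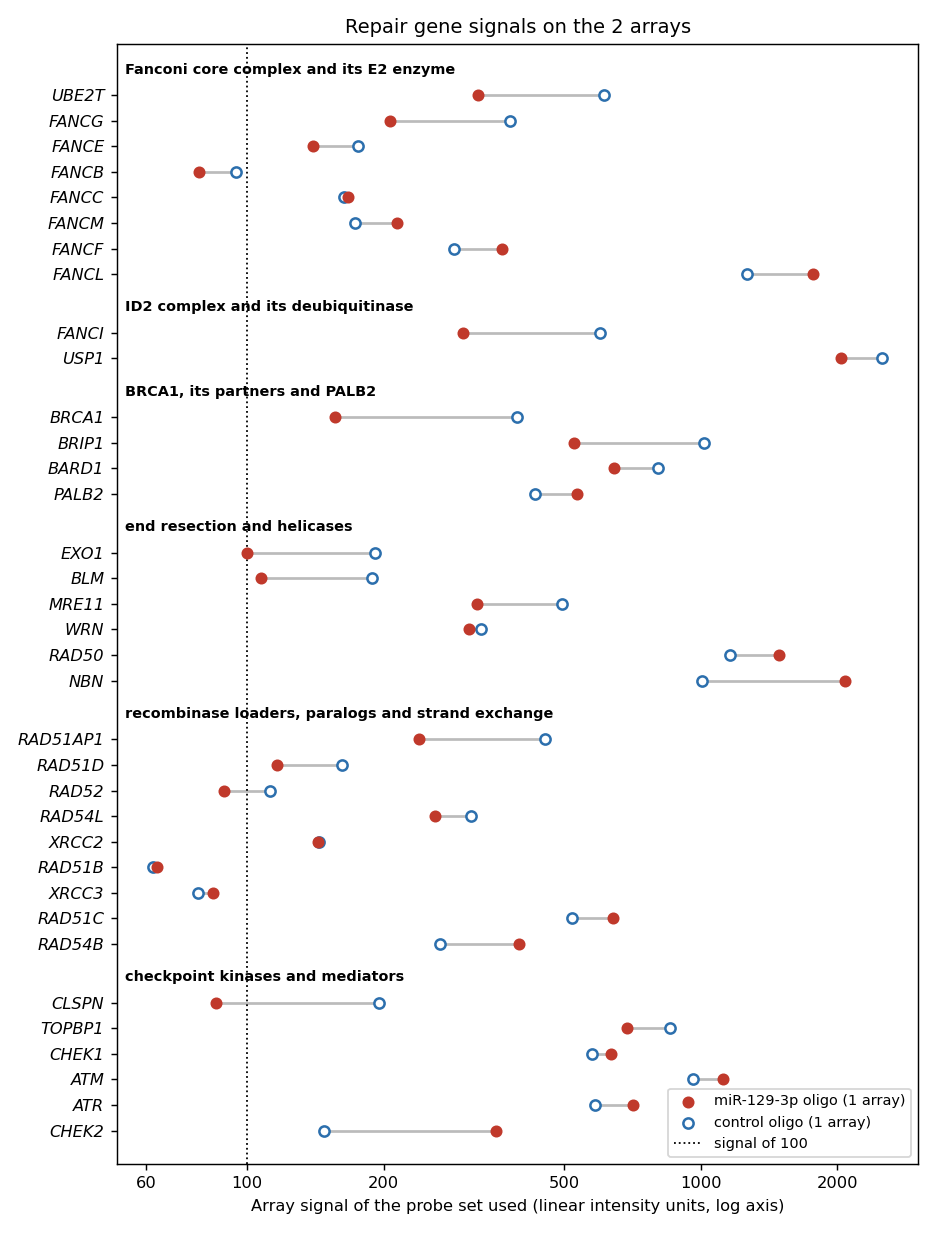
Signal of each of the 35 repair genes on its brightest probe set, on a log axis, with the miR-129-3p array as filled points and the control array as open points, 1 array each. The 10 genes that were at least 1.5-fold lower lie at 85.3 to 524 with miR-129-3p and at 189 to 1016 in control, and the dotted line marks a signal of 100.

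In the Fanconi core complex the differences went both ways, and the enzyme that supplies ubiquitin was lower. UBE2T, the E2 enzyme that hands ubiquitin to the core complex, read 323 with miR-129-3p and 611 in control, 1.85-fold lower. FANCG, a scaffold subunit that is also called XRCC9, read 207 with miR-129-3p and 380 in control, 1.78-fold lower. Each of the 2 genes had a single probe set.

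The other 5 measured core subunits were within 1.5-fold. FANCL, the ubiquitin ligase of the complex, was the brightest at 1768 with miR-129-3p and 1263 in control, a log2 difference of 0.48. FANCF, an adaptor, read 364 with miR-129-3p and 285 in control, and its other probe set 230 with miR-129-3p and 202 in control. FANCM, the DNA translocase that anchors the complex to DNA, read 214 with miR-129-3p and 173 in control, and FANCC, a subunit bound by FANCE, read 167 with miR-129-3p and 164 in control. FANCE itself read 140 with miR-129-3p and 175 in control. Of the 7 measured genes of the complex, 2 were lower (28.6%) and 0 higher, with a median of 0.03. Over all measured genes the shares were 10.8% and 17.3%. FANCB stayed under 100, at 78.5 with miR-129-3p and 94.5 in control.

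The substrate of the core complex and the enzyme that reverses the reaction were both lower on every measured probe set, by different amounts. FANCI, which is ubiquitinated as one side of a clamp on DNA, read 299 with miR-129-3p and 601 in control on its brightest probe set, a log2 difference of -0.97. Its other probe sets read 204 with miR-129-3p and 409 in control, nearly the same difference (-0.95), and 268 with miR-129-3p and 314 in control, a difference of -0.22. The probe sets of FANCI thus fall into a pair at about 2-fold and 1 inside the spread between probe sets. USP1, the protease that removes this ubiquitin, read 2032 with miR-129-3p and 2507 in control, a log2 difference of -0.30, and its other probe set differed by -0.27. It was the brightest of the repair genes on the control array.

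Around BRCA1, the ligase and its helicase partner were lower and the other 2 measured genes were not past the limit. That is 2 of 4 lower (50%) and 0 higher, against 10.8% and 17.3% of all measured genes. BRCA1, which promotes end resection and recombination, read 156 with miR-129-3p and 394 in control, 2.38-fold lower, the largest lower difference of the 32 genes. Its second probe set, an _x_at set that can take up related transcripts, read 87.9 with miR-129-3p and 145 in control, a log2 difference of -0.63. BRIP1, the helicase FANCJ that binds BRCA1, read 524 with miR-129-3p and 1016 in control on one probe set and 145 with miR-129-3p and 244 in control on the other, log2 differences of -0.93 and -0.69. For these 2 genes every measured probe set was past 1.5-fold. The names of the BRCA1 probe sets end in _s_at and _x_at, so with such probe sets left out BRCA1 has no value. The second BRCA1 probe set passed the filter only through the control array, so a lower value was built into its passing.

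BARD1, the obligate partner of BRCA1 in its ligase, had a smaller difference than BRCA1, at 643 with miR-129-3p and 804 in control, and on its second measured probe set at 333 with miR-129-3p and 462 in control (log2 differences of -0.32 and -0.45). PALB2, which bridges BRCA1 to the loader of the recombinase, read 534 with miR-129-3p and 431 in control, a log2 difference of 0.30. The partners of the BRCA1 and BARD1 heterodimer therefore stood at log2 differences of -1.25 and -0.32, and the gap between them was not tested.

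The 3 subunits of the complex that senses broken ends differed in direction on their brightest probe sets. NBN, the subunit that recruits ATM to a break, read 2078 with miR-129-3p and 1005 in control, 2.05-fold higher. Its next 3 probe sets read 1843, 954 and 728 with miR-129-3p and 746, 390 and 285 in control, log2 differences of 1.29, 1.26 and 1.31. The fifth, the dimmest, read 133 with miR-129-3p and 157 in control, a difference of -0.21, and it is the only NBN probe set whose name does not end in _s_at or _x_at. With such probe sets left out, NBN stood at -0.21.

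MRE11, the nuclease of the same complex, read 320 with miR-129-3p and 495 in control, 1.52-fold lower, just past the limit; with the mean of all its probe sets it stood at -0.26. RAD50, the ATPase that tethers the ends, read 1486 with miR-129-3p and 1160 in control, a log2 difference of 0.35, and its other probe sets differed by 0.35 and 0.97. On their brightest probe sets MRE11 thus lay below 0 and RAD50 and NBN above it, with RAD50 within 1.5-fold. The RAD50 probe set at 0.97 was past 1.5-fold. RAD54B, a translocase described with the strand exchange genes, was the nearest to the limit of those that did not pass it, at a log2 difference of 0.56 beside the limit of 0.585.

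The nuclease and helicase that lengthen the single strand were lower from low signals. EXO1, a 5′ to 3′ exonuclease, read 99.7 with miR-129-3p and 191 in control, 1.79-fold lower. BLM, the helicase mutated in Bloom syndrome, read 107 with miR-129-3p and 189 in control, 1.66-fold lower. WRN, its relative mutated in Werner syndrome, read 309 with miR-129-3p and 328 in control, a log2 difference of -0.09. Of the 6 measured genes of resection and the helicases, 3 were lower (50%) and 1 higher (16.7%). Of all measured genes, 10.8% were lower and 17.3% higher. The 6 genes had a median of -0.34. That median was 0.13 over the 4 genes left by a filter of 200 on the mean of both arrays, which removes EXO1 and BLM.

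**Figure D2:**
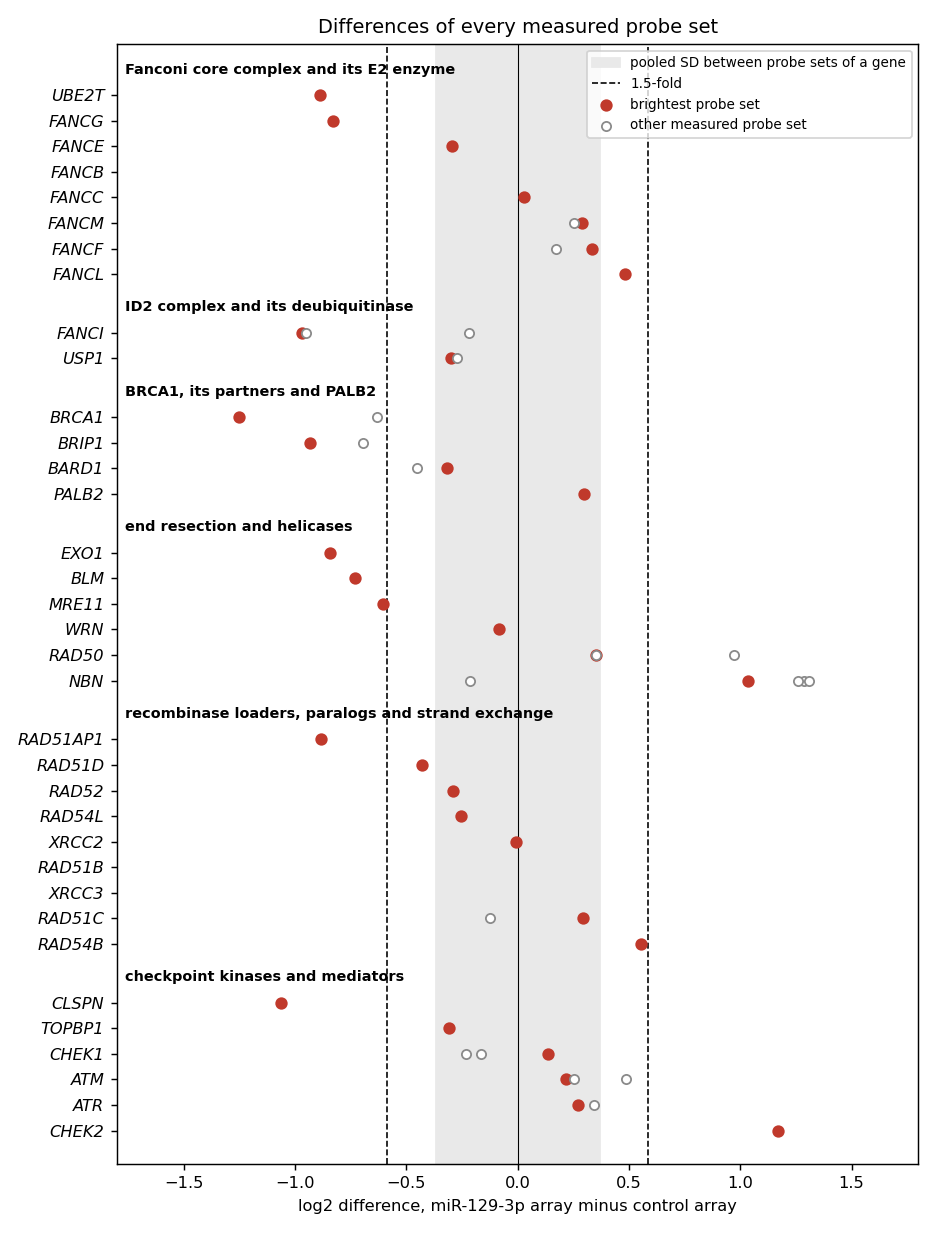
Log2 difference, miR-129-3p array minus control array, of every measured probe set of the repair genes; filled points are the brightest probe set of a gene, open points its other measured probe sets, the grey band is the pooled SD of 0.37 between probe sets of a gene and the dashed lines are 1.5-fold. BRCA1 and BRIP1 lie past the line on both probe sets, NBN on 4 of 5, and FANCI on 2 of 3. The dimmer BRCA1 probe set passed the filter only through the control array.

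Of the genes that load the recombinase and act in strand exchange, 1 of 7 measured was lower (14.3%), against 10.8% of all measured genes. RAD51AP1, which binds the recombinase and aids pairing with the intact strand, read 239 with miR-129-3p and 454 in control, 1.84-fold lower, on its only probe set. RAD54L, a DNA translocase of strand invasion, read 259 with miR-129-3p and 312 in control, and its relative RAD54B read 398 with miR-129-3p and 266 in control. The 2 translocases thus went in opposite directions within the limit, at log2 differences of -0.26 and 0.56.

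The recombinase paralogs, which form small complexes that stabilise the filament, differed little or were dim. RAD51C read 640 with miR-129-3p and 520 in control on the brighter probe set and 308 with miR-129-3p and 338 in control on the other, opposite in direction. RAD51D read 116 with miR-129-3p and 162 in control, and XRCC2 read 143 with miR-129-3p and 144 in control. RAD51B, at 63.4 with miR-129-3p and 62.2 in control, and XRCC3, at 84.1 with miR-129-3p and 78.1 in control, were not measured on any probe set. RAD52, which in human cells serves mainly single-strand annealing, reached 112 only in control, against 89.1 with miR-129-3p.

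Among the 6 checkpoint kinases and mediators, 1 gene was lower and 1 higher (16.7% each), against 10.8% and 17.3% of all measured genes. The 2 apical kinases were slightly above 0. CHEK2, the kinase activated by ATM, read 353 with miR-129-3p and 148 in control on its only probe set, 2.25-fold higher, the largest higher difference of the 32 genes. CHEK2 has near-identical pseudogene copies, so this signal is uncertain as a measure of the gene alone. CLSPN, the fork protein claspin through which ATR activates CHEK1, read 85.3 with miR-129-3p and 196 in control, 2.09-fold lower. Its other 3 probe sets were under 100 on both arrays and differed by -0.17, 0.03 and 0.06.

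ATM differed by 0.22, 0.25 and 0.49 on the log2 scale over its 3 measured probe sets, the brightest reading 1121 with miR-129-3p and 963 in control. ATR read 708 with miR-129-3p and 584 in control, and on its second measured probe set 569 with miR-129-3p and 446 in control, log2 differences of 0.27 and 0.34. For both kinases every measured probe set was above 0 and within 1.5-fold. CHEK1, the effector of ATR, read 634 with miR-129-3p and 575 in control on its brightest probe set, while its other 2 measured probe sets were at -0.17 and -0.23. TOPBP1, the activator of ATR, read 687 with miR-129-3p and 854 in control, a log2 difference of -0.31.

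Over all 52 measured probe sets of the repair genes, 13 were past the limit as lower, against 11.1% of all measured probe sets with 1 gene symbol, and 6 as higher, against 16.7% of those. Probe sets of one gene share its transcripts and are not independent. Of the 13 genes with more than 1 measured probe set, 10 had all of them on the same side of 0, and the exceptions were NBN, RAD51C and CHEK1. Of the 10 genes called lower, 7 rested on a single measured probe set.

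**Figure D3:**
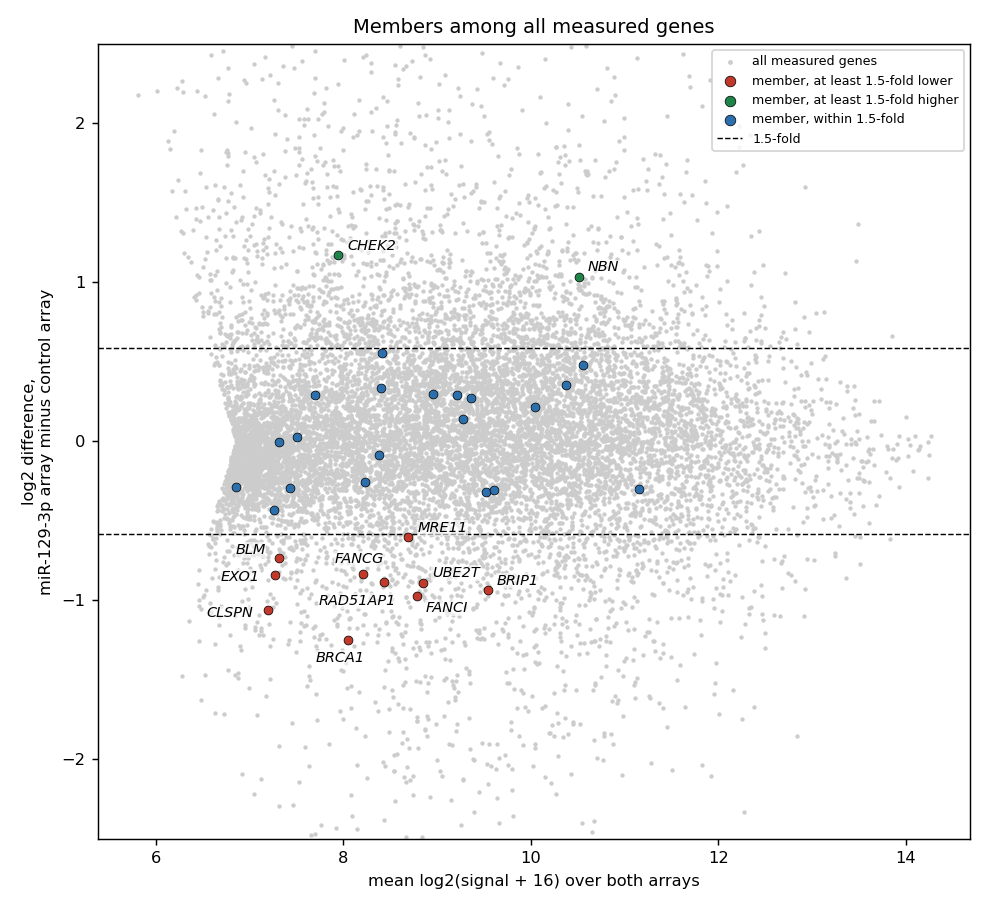
Log2 difference, miR-129-3p array minus control array, against the mean log2(signal + 16) over both arrays, 1 point for each of 12754 measured genes in grey, with the 32 measured repair genes in colour and those past 1.5-fold (dashed) named; 244 genes lie outside the vertical axis, which ends at 2.5 either way. The lower genes sit at low and middle levels and NBN among the brighter repair genes.

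A further list held 43 other genes of homologous recombination and the Fanconi pathway, of which 39 were measured. With miR-129-3p, 6 of them were past the limit as lower (15.4%) and 5 as higher (12.8%), against 10.8% and 17.3% of all measured genes. Their median log2 difference was -0.13. The lowest were SWI5 (196 with miR-129-3p and 558 in control), MND1, which forms with PSMC3IP a cofactor of meiotic recombinases (76.6 with miR-129-3p and 196 in control), and PSMC3IP itself (188 with miR-129-3p and 331 in control). MND1 passed the filter only through the control array, so a lower value was built into its passing. The highest were SFR1 (1447 with miR-129-3p and 476 in control), HELQ, a helicase of crosslink repair (420 with miR-129-3p and 154 in control, with 3 measured probe sets at log2 differences of 0.36 to 1.36), and ABRAXAS1, a scaffold that joins BRCA1 to ubiquitin chains at breaks (943 with miR-129-3p and 439 in control). Of 19 measured genes among 22 of checkpoint and break signalling, 3 were lower and 3 higher (15.8% each), with a median of -0.01. There the lowest were CDC25C, a phosphatase that starts mitosis (58.7 with miR-129-3p and 230 in control), WEE1, the kinase that holds CDK1 inactive (1036 with miR-129-3p and 2366 in control), and the histone variant gene H2AX (1123 with miR-129-3p and 2185 in control). The 3 measured probe sets of H2AX ran from -0.95 to -0.005 on the log2 scale. A lower value was likewise built into the passing of CDC25C, which reached the filter only in control. The highest were RAD9A, part of the checkpoint clamp (218 with miR-129-3p and 111 in control), RNF8, a ubiquitin ligase at breaks (870 with miR-129-3p and 540 in control), and PPM1D, a phosphatase that ends damage signalling (1265 with miR-129-3p and 832 in control). PPM1D was just past the limit at a log2 difference of 0.59, and its other measured probe set differed by 0.19.

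Other repair routes were set beside the repair genes without a test, since 1 array a group allows none. The shares over all measured genes were 10.8% lower and 17.3% higher. Non-homologous end joining, which rejoins ends without a template, had 1 of 10 measured genes lower and 0 higher, with a median of -0.01. Its lowest was PRKDC, the catalytic subunit of the DNA-dependent protein kinase, at 903 with miR-129-3p and 2304 in control, and its highest POLL, at 321 with miR-129-3p and 284 in control. Mismatch repair had 0 of 4 lower and 0 higher (median -0.06), between MSH3 at -0.51 and MLH3 at 0.58. Nucleotide excision repair had 3 of 15 lower and 3 higher (median -0.15), between GTF2H5, a subunit of TFIIH, at 1240 with miR-129-3p and 2500 in control, and DDB2, a sensor of ultraviolet damage, at 687 with miR-129-3p and 162 in control. Base excision repair had 2 of 18 lower and 2 higher (median 0.03), between the flap nuclease gene FEN1 at -0.84 and the glycosylase gene NTHL1 at 0.61.

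Proliferation markers were lower with miR-129-3p on the same arrays. A list of 21 markers of G1/S and replication had 16 lower by 1.5-fold or more (76.2%) and 0 higher. Of all measured genes, 10.8% were lower and 17.3% higher. The list had a median log2 difference of -0.88, from RRM2 at -1.77 to PCNA at 0.36. All 20 genes of G2/M were lower on their brightest probe set, with a median of -1.89, from KIF20A at -3.27 to PLK1 at -0.78. Other probe sets could differ less. CCNB2 stood at -2.24 on its brightest and -0.10 on another, and GINS2 of the G1/S list at -1.58 and -0.10. KIF20A and PLK1, and CDT1 of the G1/S list, passed the filter only through the control array. A lower value was thus built into their passing. The filter was also asked of both arrays, a rule added once the values were known. The medians were then -1.89 over 18 genes of G2/M and -0.89 over 20 genes of G1/S. The part of the proliferation markers' shared difference in that of the repair genes was not tested. In a culture measured in bulk, fewer cells in S or G2 phase and less RNA of a gene in each cell cannot be told apart.

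**Figure D4:**
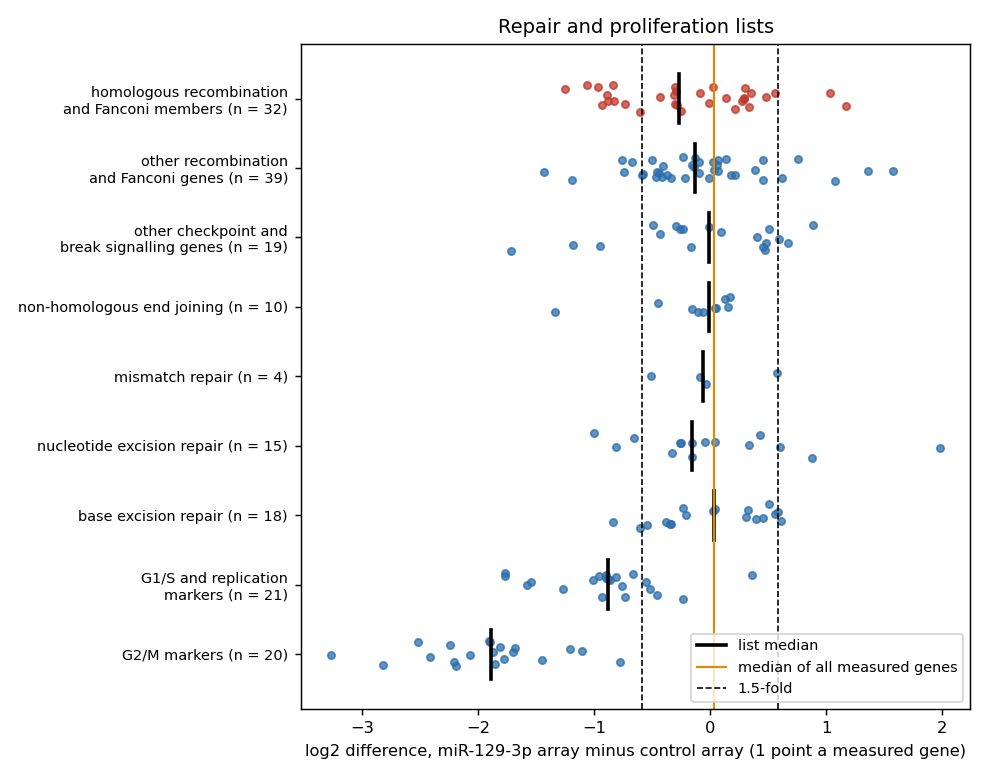
Log2 difference, miR-129-3p array minus control array, of each measured gene (points) in 9 lists, with list medians as black bars, the median of all measured genes (0.03) as a vertical line and 1.5-fold as dashed lines; vertical scatter within a list is arbitrary. The repair genes have a median of -0.27 and spread over both dashed lines, while the G2/M markers all lie below the lower one.

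Promoter sequences of 4 genes past 1.5-fold are shown because these hold 3 or more CCAAT boxes, a common promoter element, in the 300 bases of the RefSeq promoter table. The choice was made after the values were seen. CHEK1, which was within 1.5-fold, and XRCC3, which was not measured, also hold 3 or more boxes and are not shown. Each stretch holds the 150 bases before the gene's start and the first 20 bases of the gene, build GRCh38.p14, on the strand of the gene, with CCAAT boxes and E2F motifs of either strand in capitals. A box on the opposite strand reads ATTGG. The first 3 genes were lower with miR-129-3p and CHEK2 was higher. Of the 3 boxes of CHEK2, 2 lie in the bases shown and 1 outside them.
CLSPN (chr1:35769959-35770128, - strand): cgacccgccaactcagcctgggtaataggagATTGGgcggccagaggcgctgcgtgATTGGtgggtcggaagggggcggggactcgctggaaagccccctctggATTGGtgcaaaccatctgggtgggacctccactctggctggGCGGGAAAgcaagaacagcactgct
BLM (chr15:90717196-90717365, + strand): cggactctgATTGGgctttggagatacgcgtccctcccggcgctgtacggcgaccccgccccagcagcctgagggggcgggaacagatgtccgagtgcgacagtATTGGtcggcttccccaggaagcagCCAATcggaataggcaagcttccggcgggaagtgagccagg
BRIP1 (chr17:61863509-61863678, - strand): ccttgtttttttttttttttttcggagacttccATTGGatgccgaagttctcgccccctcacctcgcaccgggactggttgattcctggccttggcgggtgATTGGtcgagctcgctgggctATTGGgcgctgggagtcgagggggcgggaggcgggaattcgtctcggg
CHEK2 (chr22:28741801-28741970, - strand): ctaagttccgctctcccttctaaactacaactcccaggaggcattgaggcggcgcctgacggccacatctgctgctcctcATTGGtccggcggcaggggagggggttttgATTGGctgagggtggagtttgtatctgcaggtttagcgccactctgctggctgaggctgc
In CLSPN the E2F match GCGGGAAA covers the start of the gene.

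Motifs were counted in the 35 of the 39 genes that the promoter table lists, which are not the same 35 as those with a probe set, any listed start of a gene counting, on both strands and with overlaps between motifs kept. E2F was searched in the spellings TTTCCCGC and also TTTGGCGC and also TTTGCCGC and also TTTCGCGC, the CHR element of cell cycle genes as TTTGAA and TTTAAA, and the CCAAT box as CCAAT. An E2F match stood in 7 of 35 genes (20%), against 6.39% of 10338 measured genes with a listed promoter. Of the 9 lower genes with a promoter, EXO1 and CLSPN held it, and of the 18 within 1.5-fold FANCC, XRCC2 and TOPBP1 did. At least 2 CCAAT boxes stood in 13 of 35 genes (37.1%), against 15.8% of measured genes. They stood in 5 of the 9 lower genes and in 6 of the 18 within 1.5-fold. At least 3 boxes stood in 6 of 35 genes (17.1%), against 5.57% of measured genes. These were 3 of the 9 lower genes, 1 of the 18 within 1.5-fold, CHEK2 and the unmeasured XRCC3. A CHR match stood in 8 of 35 (22.9%), against 21.7% of measured genes. It stood in 4 of the 9 lower genes and in 3 of the 18 within 1.5-fold. The matches describe the letters in these windows and do not show binding.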

How the data were processed

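RNA of 2 samples, 1 array a group, was compared. The deposited table holds 1 intensity per probe set and array on a linear scale from 1 to 20822. MAS5 and RMA are named, per the submitters' processing notes; which gave the deposited intensity values, versions and scaling between arrays are not given in the sources used here. Compression or flooring of low signals upstream would change differences of dim genes.

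Names came from the platform's annotation table, in which 41091 probe sets had 1 gene symbol, 1801 several and 11721 were not listed there. Gene IDs of all 35 repair genes with a probe set matched the GRCh38.p14 gene table. Each gene took the value of its brightest probe set, by mean log2(signal + 16). The comparison was miR-129-3p minus control across all genes, with no p-values. A gene is called lower or higher past 1.5-fold. The repair genes and lists were chosen with earlier results of these data known. From the recombination and checkpoint lists the 3 lowest and 3 highest genes are named, and from the rest the lowest and highest. Code was tested on simulated data. Alternatives were added constants of 1 and 64, median centring, loess (fraction 0.3), quantile normalization, no filter, a mean filter of 200, the mean of probe sets, leaving out _x_at and _s_at sets, a floor of 100 and a 2-fold limit. The number of arrays limits the precision. Values came from Python 3.11.15 with pandas 2.3.3 and numpy 2.4.6, the loess from statsmodels 0.14.6 and the plots from matplotlib 3.10.9.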

Additional observations from a re-analysis of the deposited data

How the results depend on the processing

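The count of lower repair genes was 7 to 10 of 22 to 35 measured under the other settings with a 1.5-fold limit, or 25% to 36.4%, against 7.33% to 12.5% of all genes under the same settings. Without probe sets ending in _x_at or _s_at, BRCA1 had no probe set left and MRE11 was not measured. At the 2-fold limit it was 2 of 32 (6.25%), against 4.56% of all genes. The count of higher ones was 2, or 1 without probe sets ending in _x_at or _s_at and 1 when every measured probe set had to pass (a rule added once the values were known). Without the _x_at and _s_at sets that 1 gene was RAD50, and neither NBN nor CHEK2 was called. CHEK2 has no probe set left there, since its only one ends in _s_at. With every measured probe set asked to pass, the 1 gene was CHEK2. The median of the measured repair genes ran from -0.33 to -0.09. NBN was reversed, at -0.21, without probe sets ending in _x_at or _s_at, which leaves 1 dim probe set, and RAD50 stood at 0.97 there; the mismatch repair median was then 0.41 over 2 genes. Of 327 values of single genes over the alternatives, 325 moved by less than the pooled SD of 0.37 between probe sets. The median of all measured genes stayed between -0.03 and 0.07. No paired analysis was possible because each group held 1 array. Signals near 100 limit BLM, EXO1, CLSPN and RAD52, for which no detection calls were used here.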

Other observations

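SWI5 and SFR1, which form a heterodimer that assists the recombinase, lay at opposite ends of the list of other recombination and Fanconi genes, whereas MND1 and PSMC3IP, also partners, were both lower. For MND1, which passed the filter only through the control array, a lower value was built into its passing. SFR1 read 1447 with miR-129-3p and 476 in control, and on its second probe set 468 with miR-129-3p and 184 in control, log2 differences of 1.57 and 1.28. SWI5 read 196 with miR-129-3p and 558 in control on its only probe set, a log2 difference of -1.44. USP1 differed by -0.30, while WDR48, the cofactor that activates it, was higher on all 4 probe sets, by 0.68 to 0.95.

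The complex that tethers BRCA1 to ubiquitin chains showed 1 member apart from the rest. ABRAXAS1, its scaffold, was higher on both probe sets, by 1.07 and 1.28 on the log2 scale. BRCC3, UIMC1, BABAM1 and BABAM2, its other subunits, lay between 0.02 and 0.21, within the spread of 0.37 between probe sets. BRCA1 itself read 156 with miR-129-3p and 394 in control. The partners and subunits named here were picked after their values were seen, and none of the contrasts was tested.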
